A study of Mus musculus with 6 samples.

Results

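Expression of 7 genes that mark the mesothelium, Msln, Upk3b, Upk1b, Lrrn4, Wt1, Bnc1 and Muc16, was examined in lung RNA of Zpbp2 KO and WT mice. The genes were chosen by symbol, and each was found as 1 of the 41388 genes in the count table. Lungs of adult mice were collected at ZT7, which is 7 h after lights on, and 1 RNA sequencing library was made for each of 3 WT mice (WT1 to WT3) and 3 KO mice (KO1 to KO3). WT mice were C57BL/6J. KO mice (Zpbp2 KO) carried a germline deletion of the 5′ part of Zpbp2 and had been kept on the C57BL/6J background, so no promoter or Cre restricts the deletion to a cell type. The age was given only as adult, and the labels do not state how much pleura each sample held. Whether the deletion of Zpbp2 was accompanied by a different level of pleural transcripts was the question asked of these genes.

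The mesothelium is the single layer of flat cells that covers the lung surface as visceral pleura and also lines the chest wall, the pericardium and the peritoneum. It makes the lubricating fluid film on which the lung slides, and it keeps both epithelial features, such as keratins and junctions, and mesenchymal ones. In a bulk sample a change in these transcripts cannot separate fewer mesothelial cells from less RNA per cell.

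The libraries held between 59134950 and 71354388 counts and were not alike within a genotype. KO2 and KO3 were close to counting noise, with a variance 1.70 to 1.93 times the counting variance for genes with a total over the pair between 20 and 20000 and 3.40 times for genes with more, while KO1 and KO2 reached 20.7 times between 2000 and 20000 and 135 times beyond. Both therefore enter as 1 sample (WT n = 3, KO n = 2), although the labels name 2. WT3 and KO1 carried squamous epithelium transcripts, whose 15 listed genes summed to 4707 and 9003 CPM against 29.5 to 37.7 CPM in the other libraries (CPM is the count divided by the scaled library size in units of 1e6), and each main result is also given without these libraries. That leaves WT1 and WT2 against KO2 and KO3 summed as 1 KO sample, so the intervals and p-values of this fit, and of that without KO1 alone, take their spread from WT only and assume that the lone KO sample varies like the WT samples. The labels were checked with Zpbp2 itself, which had 20, 15 and 7 counts in WT and 1, 0 and 0 counts in KO.

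The identity of the pleural signal was checked with related genes. The uroplakins Upk1a, Upk2 and Upk3a, which are made with Upk1b in the urothelium of the bladder, were each at 3.17 CPM or below in every library (0 of 3 called by edgeR and 1 at an unadjusted p of at most 0.05, against 2.28% and 27.3% of all tested genes). Calb2, the calretinin gene used as a mesothelial marker, had only 0 to 5 counts per library, and the omental mesothelial lectin Itln1 had 2 to 16 counts. These were the only members of a list of 14 further mesothelium-restricted genes that were too low to be tested.

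Promoter sequences were available for Upk3b, Lrrn4, Bnc1 and Muc16. Those of Upk3b, Lrrn4 and Bnc1 are shown because the levels of these genes rose and fell together over the 6 libraries. Each is 300 bases of GRCm38.p6 from RefSeq, from 250 bases before to 50 bases after the start of the gene, written 5′ to 3′ on the strand of the gene. They lie at chr5:136038246-136038545 on the plus strand for Upk3b, chr2:132880813-132881112 on the minus strand for Lrrn4 and chr7:81992250-81992549 on the minus strand for Bnc1. Capitals mark a TEAD motif (GGAATG or its reverse complement) in Upk3b and Lrrn4 and GC boxes (GGGCGG or its reverse complement) in Bnc1.
Upk3b: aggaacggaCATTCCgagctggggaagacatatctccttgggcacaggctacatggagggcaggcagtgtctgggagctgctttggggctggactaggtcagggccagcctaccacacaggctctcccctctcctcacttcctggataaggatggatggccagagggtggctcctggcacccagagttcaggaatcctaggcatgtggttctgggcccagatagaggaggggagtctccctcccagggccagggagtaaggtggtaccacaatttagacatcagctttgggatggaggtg
Lrrn4: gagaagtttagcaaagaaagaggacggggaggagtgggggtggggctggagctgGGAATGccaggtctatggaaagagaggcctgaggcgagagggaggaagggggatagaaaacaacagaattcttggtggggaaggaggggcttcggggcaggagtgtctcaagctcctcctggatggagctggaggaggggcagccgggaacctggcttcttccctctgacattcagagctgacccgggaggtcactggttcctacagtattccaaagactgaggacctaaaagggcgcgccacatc
Bnc1: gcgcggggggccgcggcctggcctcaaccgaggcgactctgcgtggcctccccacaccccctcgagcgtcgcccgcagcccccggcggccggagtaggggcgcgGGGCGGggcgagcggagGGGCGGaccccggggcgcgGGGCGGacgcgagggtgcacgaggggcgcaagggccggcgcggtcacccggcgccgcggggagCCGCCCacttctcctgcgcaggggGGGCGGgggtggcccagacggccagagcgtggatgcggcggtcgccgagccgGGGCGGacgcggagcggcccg

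The 3 windows did not share a base composition. The Bnc1 window was 83.3% G or C with 50 CG pairs and 6 GC boxes, whereas the Upk3b and Lrrn4 windows were 58.7% and 58.0% G or C with 2 and 7 CG pairs and no GC box. A GC box was present in 35.7% of all 32851 promoter windows. Upk3b and Lrrn4 held 1 TEAD motif each, with the first base at -241 and -196 from the start, and 14.7% of all windows held one. The motif shared by WT1 and EGR factors, searched as GCGNGGGCG on both strands, which can overlap a GC box, and the TATA box, searched as TATAAA, matched none of the windows, Muc16 included. They matched 5.55% and 13.6% of all windows.

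To compare genes with each other, the level was divided by the exon length of the gene in kb. In WT lungs Upk3b had 34.7 ± 0.296 CPM per kb (SD, n = 3), Msln 32.0 ± 1.33, Upk1b 23.9 ± 0.529 and Lrrn4 11.9 ± 1.54 CPM per kb. The transcription factor genes were lower, with 1.95 ± 0.189 CPM per kb for Bnc1 and 1.41 ± 0.190 CPM per kb for Wt1. Among the genes with a length, the level per kb thus separated the surface protein genes Upk3b, Msln, Upk1b and Lrrn4 from the regulators in every library. In KO the order of the first pair was turned. Msln was at 30.6, 55.1 and 55.4 CPM per kb in KO1, KO2 and KO3, and Upk3b at 30.1, 49.0 and 50.4 CPM per kb. The KO means were 42.9 ± 17.4 (SD, n = 2) for Msln and 39.9 ± 13.9 CPM per kb for Upk3b. Those of Bnc1 and Wt1 were 1.95 ± 0.822 and 1.12 ± 0.410 CPM per kb. These SDs are between libraries and do not measure a difference between genes of the same libraries. Msln was above Upk3b in each KO library, and Bnc1 was above Wt1 in every library, which was not tested. Muc16, also a surface protein gene, has no value per length and is outside this comparison, because its identifier in the count table is not in the annotation used.

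None of the 7 genes was called in KO against WT. All 7 passed the filter on low counts, and 0 had an adjusted p of at most 0.05 in the edgeR quasi-likelihood test, where 2.28% of 18660 genes were called (1.38% higher and 0.906% lower). None, 0 of 7, had an unadjusted p at or under 0.05 either, which 27.3% of all tested genes had. DESeq2 called 0 of 7, where 21.5% of the 18003 genes with an adjusted p were called. With the 6 libraries kept separate 0 were called, where 18.9% of 18014 genes were called (9.81% higher and 9.07% lower). The median log2 fold change of the 7 genes was 0.01, and it was 0.02 over all tested genes. Their summed level was 332, 354 and 336 CPM in WT1 to WT3, 301 CPM in KO1 and 482 and 487 CPM in KO2 and KO3, so the KO libraries lay on both sides of the WT range. Within the KO group, KO1 differed from KO2 and KO3.

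**Figure D1:**
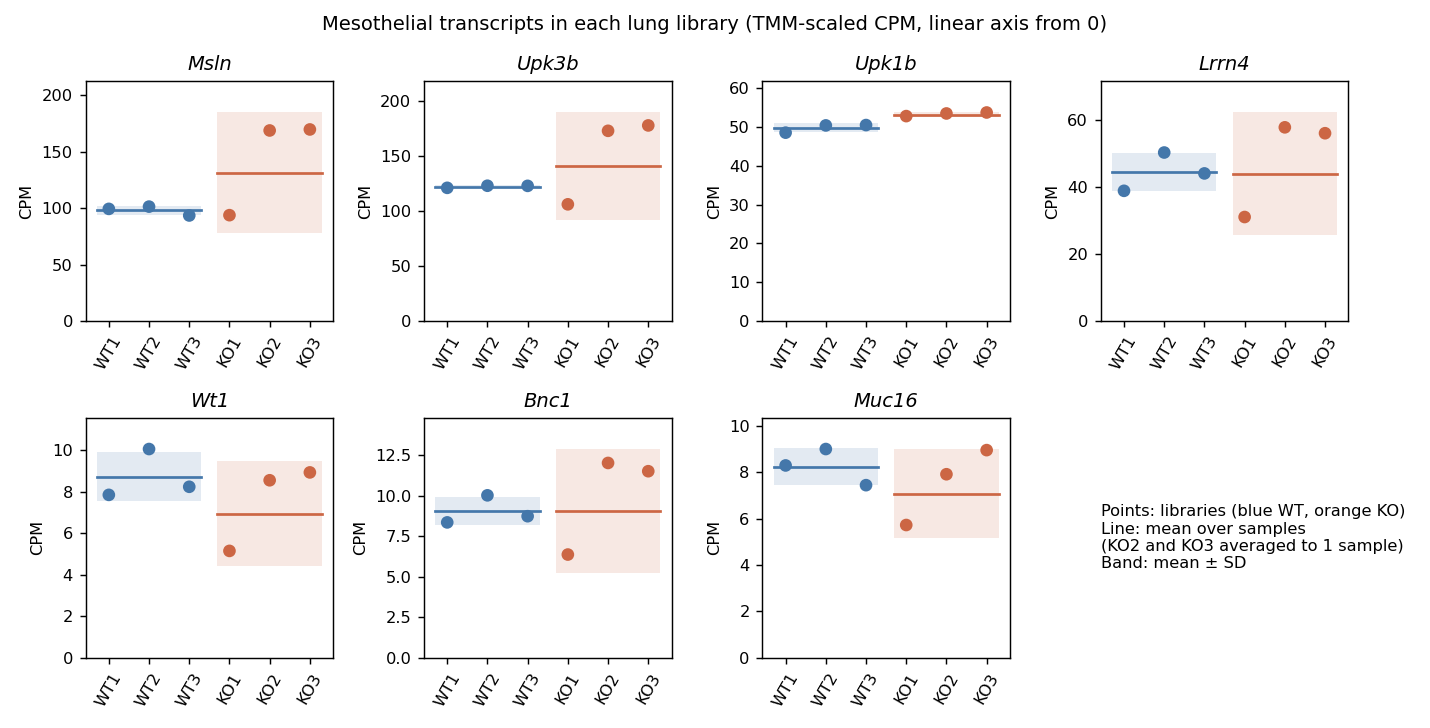
Level of each mesothelial gene in each library (CPM, linear axis from 0), with points for libraries (blue WT, orange KO), a line for the mean over samples and a band for ± SD, KO2 and KO3 being averaged to 1 sample. KO2 and KO3 lie above KO1 for all 7 genes, by a fold between 1.02 for Upk1b and 1.85 for Bnc1.

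Msln (ENSMUSG00000063011) encodes mesothelin, a surface protein tethered by a lipid anchor and cut from a longer precursor. It lies on chromosome 17 from 25748613 to 25754378 on the minus strand of GRCm38. Msln was at 99.4, 101 and 93.5 CPM in WT1 to WT3, at 93.8 CPM in KO1 and at 169 and 170 CPM in KO2 and KO3. KO1 lay within the WT range and the other KO libraries far above it. WT had a mean of 98.1 ± 4.07 CPM (SD, n = 3) and KO one of 132 ± 53.4 CPM (SD, n = 2). The log2 fold change was 0.43 (SE 0.25, 95% interval -0.21 to 1.07, edgeR adjusted p 0.333). Without WT3 and KO1 the log2 fold change was 0.75 (interval 0.56 to 0.94) with an edgeR adjusted p of 0.00201, so the call depended on these libraries and was made with 1 KO sample. Without KO1 alone it was 0.79 (adjusted p 0.0783).

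Muc16 (ENSMUSG00000032134) encodes a very large membrane mucin, known in human serum as the antigen CA125, that binds mesothelin and is also made by airway and eye surface epithelium. RefSeq places Muc16 on chromosome 9, but the extent of the gene model that was counted is not known. Muc16 was at 8.29, 8.997 and 7.44 CPM in WT1 to WT3, at 5.72 CPM in KO1 and at 7.91 and 8.95 CPM in KO2 and KO3. KO1 was the lowest library, and KO2 and KO3 lay within the WT range. The log2 fold change was -0.21 (SE 0.20, interval -0.73 to 0.30, edgeR adjusted p 0.552), and it was -0.04 (adjusted p 0.90) without WT3 and KO1. In KO2 and KO3 together Msln was 1.69 times its mean in WT1 and WT2, and Muc16 was 0.975 times its own.

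Upk3b (ENSMUSG00000042985) and Upk1b (ENSMUSG00000049436) encode uroplakins, membrane proteins first described in the plaques of the bladder lining, of which Upk1b belongs to the tetraspanins. Upk3b lies on chromosome 5 from 136038496 to 136046487 on the plus strand. Its level was nearly constant in WT, at 121, 123 and 123 CPM, a coefficient of variation of 0.852% against a median of 7.17% over all tested genes. It was 106 CPM in KO1 and 173 and 178 CPM in KO2 and KO3, below the WT range in the first and above it in the others. The log2 fold change was 0.21 (SE 0.21, interval -0.34 to 0.76, edgeR adjusted p 0.582). Without WT3 and KO1 it was 0.52 (interval 0.33 to 0.72) with an edgeR adjusted p of 0.00876, again with 1 KO sample, and without KO1 alone it was also 0.52 (adjusted p 0.0784).

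Upk1b was the gene with the smallest spread among the KO libraries. It lies on chromosome 16 from 38773184 to 38800328 on the minus strand. Upk1b was at 48.6, 50.4 and 50.5 CPM in WT1 to WT3 and at 52.8, 53.5 and 53.8 CPM in KO1 to KO3. It was the only one of the 7 genes whose KO libraries did not overlap the WT libraries, with KO above. This holds for 20.0% of all tested genes, and 40.9% do not overlap in either direction. The difference was small, a log2 fold change of 0.10 (SE 0.05, interval -0.02 to 0.22), and did not pass the test (edgeR adjusted p 0.238). Without WT3 and KO1 it was 0.12 (adjusted p 0.397), and with an offset for gene length and GC content, chosen after seeing the data, it was -0.01 (adjusted p 0.966). Tested genes within 10% of the length of Upk1b had a median log2 fold change of 0.16.

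Lrrn4 (ENSMUSG00000043110) encodes a membrane protein with leucine-rich repeats and lies on chromosome 2 from 132868305 to 132880891 on the minus strand. Lrrn4 was at 38.8, 50.2 and 44.0 CPM in WT1 to WT3, at 31.0 CPM in KO1 and at 57.7 and 56.0 CPM in KO2 and KO3. The WT libraries lay between the low KO1 and the high KO2 and KO3, and the KO mean of 43.9 ± 18.3 CPM (SD, n = 2) was close to the WT mean of 44.4 ± 5.72 CPM (SD, n = 3). The log2 fold change was -0.00 (SE 0.28, interval -0.71 to 0.70, edgeR adjusted p 0.994). Without WT3 and KO1 it was 0.35 (adjusted p 0.133).

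Bnc1 (ENSMUSG00000025105) encodes basonuclin 1, a zinc finger protein that is also made in the basal layer of squamous epithelia. It lies on chromosome 7 from 81966672 to 81992292 on the minus strand and overlaps the pseudogene 4833418N17Rik, which had at most 2 counts in a library. Bnc1 was at 8.36, 10.03 and 8.74 CPM in WT1 to WT3, at 6.37 CPM in KO1 and at 12.03 and 11.5 CPM in KO2 and KO3. KO1 was the lowest library and KO2 and KO3 were the highest. The part of squamous epithelium in the Bnc1 level was not tested. The log2 fold change was 0.01 (SE 0.28, interval -0.70 to 0.73, edgeR adjusted p 0.981), and 0.36 without WT3 and KO1 (adjusted p 0.185).

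Wt1 (ENSMUSG00000016458) encodes a zinc finger transcription factor that is needed for the mesothelium, the kidney and the gonads. It lies on chromosome 2 from 105126529 to 105173616 on the plus strand. Wt1 was at 7.85, 10.1 and 8.24 CPM in WT1 to WT3, at 5.15 CPM in KO1 and at 8.55 and 8.93 CPM in KO2 and KO3. KO1 lay below all WT libraries and KO2 and KO3 within their range. The log2 fold change was -0.32 (SE 0.26, interval -0.99 to 0.35, edgeR adjusted p 0.492). Without WT3 and KO1 it was -0.04 (adjusted p 0.926), and without KO1 alone it was 0.00 (adjusted p 0.993).

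**Figure D2:**
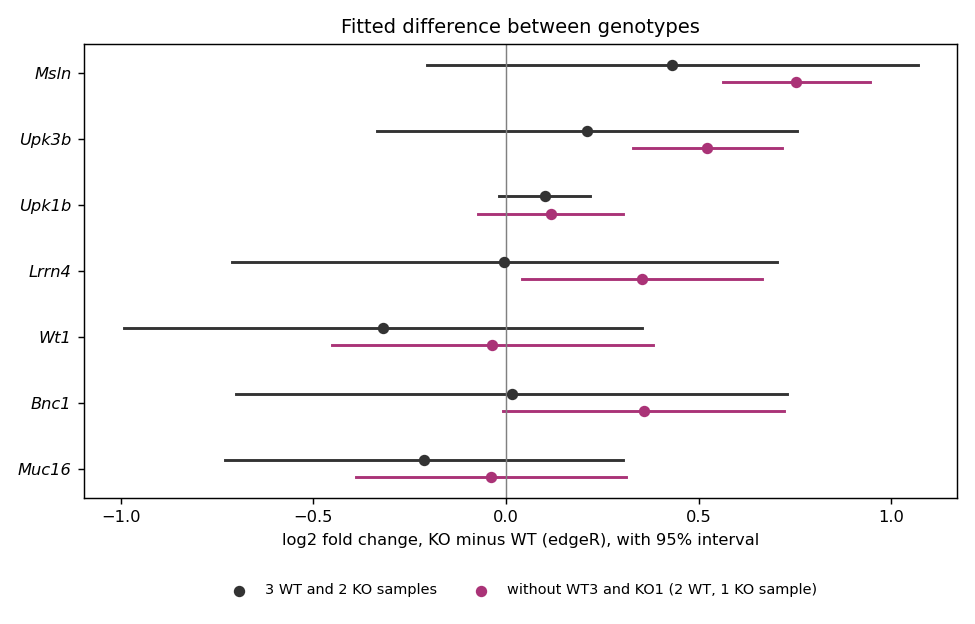
Fitted log2 fold change of each gene (KO minus WT, points) with its 95% interval (lines), for all samples and without WT3 and KO1. With all samples every interval includes 0, and without WT3 and KO1 the intervals of Msln, Upk3b and Lrrn4 lie above 0, and the adjusted p of Msln and Upk3b was at most 0.05.

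The comparison was then made between the libraries with squamous epithelium transcripts and between those without, which still differed in the other cell type sums given further on. Between KO1 and WT3 the ratio of KO1 to WT3 was 1.05 for Upk1b, 1.0 for Msln, 0.864 for Upk3b, 0.769 for Muc16, 0.729 for Bnc1, 0.705 for Lrrn4 and 0.625 for Wt1. In the libraries without these transcripts, the ratio of the mean of KO2 and KO3 to the mean of WT1 and WT2 was 1.69 for Msln, 1.44 for Upk3b, 1.28 for Lrrn4 and Bnc1, 1.08 for Upk1b, 0.976 for Wt1 and 0.975 for Muc16. Lrrn4, Bnc1 and Upk3b thus went opposite ways in the 2 sets of libraries. Neither set has more than 1 sample in KO, and this difference between the sets was not tested.

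The difference within the KO group was then set beside that of all genes. The mean of KO2 and KO3 was 1.85 times KO1 for Bnc1, 1.83 times for Lrrn4, 1.80 times for Msln, 1.70 times for Wt1, 1.65 times for Upk3b, 1.47 times for Muc16 and 1.02 times for Upk1b. At least 1.4 times was reached by 6 of the 7 genes and by 11.3% of all tested genes. KO1 was the lowest of the 6 libraries for Upk3b, Lrrn4, Wt1, Bnc1 and Muc16, which held for 25.1% of all tested genes. KO1 was lowest with KO2 and KO3 highest for Upk3b, Lrrn4 and Bnc1, against 4.11% of all tested genes. Because KO2 and KO3 count as 1 sample, this is a difference between 2 samples of a genotype, with no replicate check.

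Other cell types were set beside this division, and not all of them followed it. The median ratio of KO2 and KO3 to KO1 was 1.48 for ciliated and 1.28 for club cell genes. It was 1.08 for alveolar type 1, 0.96 for alveolar type 2, 1.02 for cardiomyocyte and 0.829 for endothelial genes. Ciliated cell genes, 7 of which were in the table, had sums of 2115 to 2436 CPM in WT and of 1979, 2763 and 2707 CPM in KO1 to KO3. Club cell genes were at 31330 to 36210 CPM in WT, at 41910 CPM in KO1, at 55310 CPM in KO2 and at 55360 CPM in KO3. The 8 hepatocyte genes, none at 0 in all libraries, had a sum of 77.5 to 82.7 CPM in WT, and KO1 to KO3 had 88.6, 141 and 144 CPM. Most of the WT sum was Trf, at 74.6 to 79.3 CPM in WT and at 82.2, 96.6 and 99.45 CPM in KO1 to KO3. The other hepatocyte genes were each at 2.54 CPM or below in every WT library. The ratio of KO2 and KO3 to KO1 was at least 1.4 for 6 of the 7 tested hepatocyte genes, with a median of 7.97, and the albumin gene Alb was at 3.07 CPM in KO1 and at 24.0 and 24.9 CPM in KO2 and KO3. Adipocyte genes, which mark fat that borders the pleura, had a ratio of at least 1.4 for 8 of 10 genes, with a median of 2.52. Their sum was 1046 to 1530 CPM in WT and 341, 504 and 515 CPM in KO1 to KO3, so that unlike the mesothelial sum it was lower in all KO libraries than in all WT libraries. The sum of cardiomyocyte genes was 2623 to 7413 CPM in WT and 1601, 1366 and 1381 CPM in KO1 to KO3. Endothelial genes had sums of 3277 to 3504 CPM in WT and of 3752, 3026 and 3020 CPM in KO1 to KO3. Alveolar type 2 genes had 21780 to 22700 CPM in WT and 32560, 30940 and 30810 CPM in KO1 to KO3. Called higher were 4 of 8 alveolar type 2, 3 of 7 alveolar type 1 and 1 of 7 ciliated genes, where 1.38% of all tested genes were. Called lower were 3 of 10 adipocyte genes, where 0.906% of all tested genes were. No club, cardiomyocyte, hepatocyte or endothelial gene was called. The part of these cell types in the mesothelial values was not tested.

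Ratios within a library do not depend on scaling between libraries, and Upk3b served as the reference. Msln had 82.0, 82.4 and 76.1 counts per 100 Upk3b counts in WT1 to WT3 and 88.3, 97.5 and 95.4 in KO1 to KO3. Each KO library exceeded each WT library. Wt1 had 6.48, 8.17 and 6.70 counts per 100 Upk3b counts in WT and 4.85, 4.94 and 5.02 in KO, and all KO libraries were below all WT libraries. Muc16 had 6.84, 7.31 and 6.05 in WT and 5.39, 4.57 and 5.03 in KO, also without overlap. Over all tested genes the ratio to Upk3b did not overlap for 18.8%, with KO above for 1.76% and KO below for 17.0%.

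The remaining ratios overlapped between the genotypes. Upk1b had 40.1, 41.0 and 41.1 counts per 100 Upk3b counts in WT1 to WT3 and 49.7, 30.9 and 30.2 in KO1 to KO3. Lrrn4 ranged from 32.0 to 40.8 in WT and from 29.2 to 33.4 in KO, and Bnc1 from 6.89 to 8.15 in WT and from 6.00 to 6.95 in KO. The 3 and 2 samples can be allotted in 10 ways, so an exact permutation test of a single ratio cannot give a p below 0.1 (0.2 where the smaller tail is doubled), and the ratios are given without a test.

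**Figure D3:**
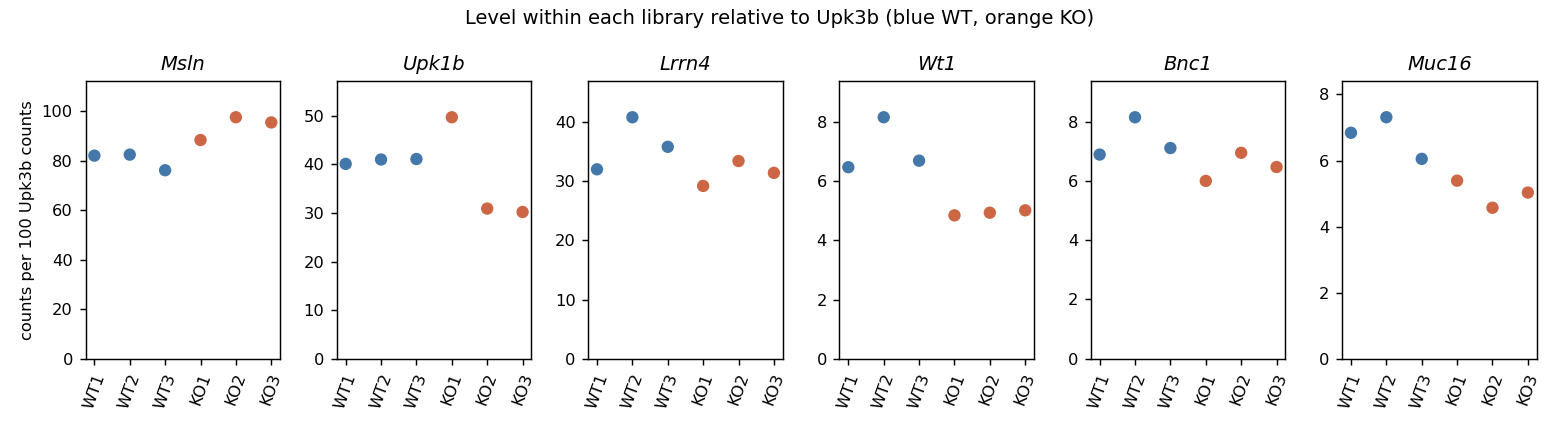
Counts of each gene per 100 Upk3b counts in the same library (linear axes from 0, blue WT, orange KO). Msln lies higher and Wt1 and Muc16 lower in all KO libraries than in all WT libraries, and Upk1b splits KO1 (49.7) from KO2 and KO3 (30.9 and 30.2).

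Exon length was set beside these differences, since the median fold change of the genes nearest in length fell from the shortest to the longest of them. Wt1 is the longest of the 6 genes with a length, at 6.2 kb, and Upk1b the shortest at 2.09 kb. Genes within 10% of the length of Wt1 had a median log2 fold change of -0.05 against -0.32 for Wt1, and those within 10% of the length of Msln (3.06 kb) had 0.09 against 0.43 for Msln. After the offset for length and GC content Msln had a log2 fold change of 0.35 and Wt1 one of -0.28 (edgeR adjusted p 0.560 and 0.638).

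The profiles over the 6 libraries fell into groups. Pearson's r of log2 CPM, a description over 6 libraries of which 2 are close to the same sample, was 0.99 for Lrrn4 and Bnc1, 0.97 for Msln and Upk3b and 0.95 for Wt1 and Muc16. Between Upk3b and Lrrn4 it was 0.87 and between Upk3b and Bnc1 0.90. Msln and Wt1 had 0.38. Upk1b had the lowest values, with a median of 0.33 with the other genes and -0.18 with Wt1 and -0.21 with Muc16. The median over all 21 pairs was 0.78.

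The genes outside the set with the most similar profile to its mean were Kl (r 0.997), BC030307 (0.996), Trim3 (0.995), Dnal1 (0.994) and Smim6 (0.993), among 15142 genes of at least 1 CPM on average. Of these genes 1.05% had an r of at least 0.95. The value could be given for 11 mesothelium-restricted genes, of which 4 reached 0.95, Gpm6a and Ildr2 with 0.99, Cldn15 with 0.98 and Rspo1 with 0.96. Pkhd1l1 and Aldh1a2 had 0.94, Has1 0.88 and Nkain4 0.79, and the lowest values were those of Sbspon (0.344), Prg4 (0.299) and Tbx18 (0.295).

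The further mesothelium-restricted genes were then compared. Of the 14 listed, 12 were tested and 0 were called by edgeR, with 1, the transcription factor gene Tbx18, at an unadjusted p of at most 0.05, against 2.28% and 27.3% of all tested genes. DESeq2 is given for both further lists together in the closing section. The median log2 fold change was 0.05, with 7 above and 5 below 0. Tbx18 was at 3.28, 3.10 and 2.45 CPM in WT1 to WT3 and at 1.14, 2.03 and 2.05 CPM in KO1 to KO3. Its log2 fold change was -0.88 (SE 0.31, edgeR adjusted p 0.153), -0.65 without WT3 and KO1 and -0.53 without KO1 alone. Tbx18 was the only tested gene of this list with all KO libraries below all WT libraries, which holds for 20.9% of all tested genes.

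The division between KO1 and the other KO libraries was present in these genes too. The mean of KO2 and KO3 was at least 1.4 times KO1 for 10 of the 12, with a median of 1.70, against a median of 1.0 over all tested genes. Aldh1a2, a retinoic acid synthesis enzyme, was at 38.6, 42.6 and 41.8 CPM in WT, 37.6 CPM in KO1 and 57.9 and 61.1 CPM in KO2 and KO3. Gpm6a, a membrane glycoprotein gene, was at 52.2, 63.4 and 57.1 CPM in WT, 47.9 CPM in KO1 and 73.5 and 71.9 CPM in KO2 and KO3. Pkhd1l1 was at 45.2, 69.7 and 49.9 CPM in WT, 28.4 CPM in KO1 and 72.1 and 71.3 CPM in KO2 and KO3. All 3 genes were lowest in KO1 and highest in KO2 and KO3. KO1 was lowest of all libraries for 10 of the 12 genes, and KO1 lowest with KO2 and KO3 highest for 7 of the 12.

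Without WT3 and KO1, 4 of 13 tested genes of the restricted list were called higher in the lone KO sample and 0 lower, where 6.01% and 5.88% of 18971 genes were. They were Has1, a hyaluronan synthase gene (log2 fold change 1.17, edgeR adjusted p 0.00754), Aldh1a2 (0.55, 0.00925), the claudin gene Cldn15 (0.43, 0.0236) and the Wnt pathway agonist gene Rspo1 (0.41, 0.0330). The median log2 fold change was 0.33 for this list, 0.35 for the 7 genes and -0.00 over all tested genes. Of the 7 genes 2 were called higher in that fit, Msln and Upk3b, and 0 lower.

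**Figure D4:**
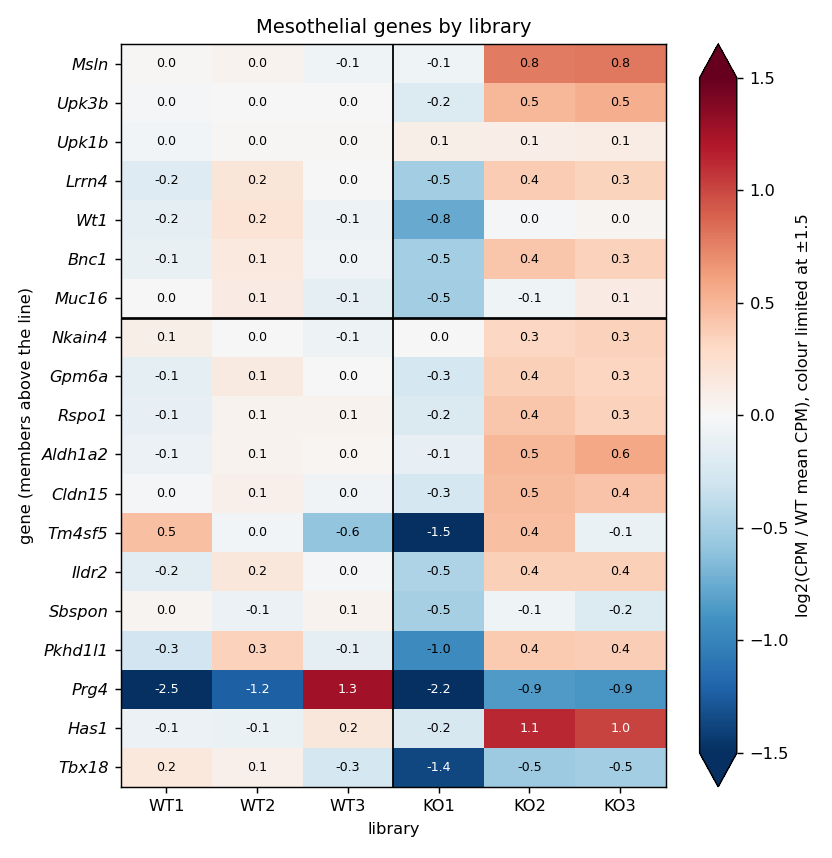
Colour and number give log2 of the CPM over the WT mean CPM for the 7 genes (above the line) and the 12 tested mesothelium-restricted genes in each library. Values are below or close to 0 in KO1 and mostly above 0 in KO2 and KO3, with Prg4 highest in WT3 and Tbx18 low in all KO libraries.

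Prg4, which encodes the lubricant lubricin, stood apart from the other restricted genes. It was at 116 CPM in WT3, 8.59 and 20.6 CPM in WT1 and WT2, 10.4 CPM in KO1 and 26.8 and 26.4 CPM in KO2 and KO3. WT3 alone set the WT mean, and the log2 fold change went from -1.37 (SE 1.19, edgeR adjusted p 0.516) to 0.86 (adjusted p 0.170) without WT3 and KO1. In the list of 9 hyaluronan and lubrication genes 0 were called and 2 had an unadjusted p of at most 0.05, with 5 above and 4 below 0 and a median of 0.02. The shares of all tested genes were 2.28% and 27.3%. Has1 was called higher and Hyal1 lower without WT3 and KO1, where 6.01% and 5.88% of all tested genes were. The most abundant gene of the list, the hyaluronidase gene Tmem2, had a log2 fold change of 0.04 (edgeR adjusted p 0.740). Has2, a hyaluronan synthase gene, was at 0.933, 1.204 and 1.184 CPM in WT and 0.540, 0.514 and 0.599 CPM in KO. Its log2 fold change was -1.01 (SE 0.21, edgeR adjusted p 0.0657).

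Mesothelial genes that other lung cells also make were compared next. Of 18 such genes, 0 were called and 7 had an unadjusted p of at most 0.05, with 13 above and 5 below 0 and a median of 0.18. Over all tested genes 2.28% were called and 27.3% had such an unadjusted p. In the fit without WT3 and KO1 edgeR called 9 higher and 1 lower, where 6.01% and 5.88% of all tested genes were. Only 1 of the 18 reached 1.4 times between KO1 and the other KO libraries, the complement gene C3, which was the most abundant of the list. C3 was at 1123, 1340 and 1289 CPM in WT, 1088 CPM in KO1 and 1693 and 1674 CPM in KO2 and KO3. Its log2 fold change was 0.16 (edgeR adjusted p 0.676), and 0.45 without WT3 and KO1. Dmkn, a gene of squamous epithelium, was at 179.5 CPM in WT3 and 306 CPM in KO1 and at 21.6 to 31.7 CPM in the other libraries, high in the libraries with squamous epithelium transcripts. Its log2 fold change was 1.17 (edgeR adjusted p 0.617), and 0.44 (adjusted p 0.0316) without WT3 and KO1. Cdh2, the N-cadherin gene, which heart muscle also expresses, was at 21.9, 13.9 and 13.5 CPM in WT and 7.91, 7.49 and 6.47 CPM in KO (log2 fold change -1.13, SE 0.25, edgeR adjusted p 0.0716, and -1.35 with adjusted p 0.0124 without WT3 and KO1).

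Retinoic acid genes were listed because Aldh1a2 marks mesothelium. Of 14 genes 0 were called and 3 had an unadjusted p of at most 0.05, with 8 above and 6 below 0 and a median of 0.07. Over all tested genes 2.28% were called and 27.3% had such a p. Aldh1a2 and Rdh10 were called higher and Stra6 lower without WT3 and KO1, where 6.01% and 5.88% of all tested genes were. Aldh1a1, the most abundant and also a club cell gene, had a log2 fold change of 0.07 (edgeR adjusted p 0.770). Cyp26b1, which encodes a retinoic acid degrading enzyme, was at 431 CPM in WT1 and at 13.5 to 46.5 CPM in the other libraries. That library set its log2 fold change, which was -1.84 (SE 1.49, edgeR adjusted p 0.485). WT1 was also the library with the highest sum of cardiomyocyte genes. Crabp2, a retinoic acid binding protein gene, was at 11.3 CPM in WT3 and 20.05 CPM in KO1 and at 0.225 CPM or below in the others (adjusted p 0.744).

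Membrane mucins were listed as the family of Muc16. Of 6 genes 1 was called, Muc1, the mucin of alveolar and airway epithelium, where 1.38% of all tested genes were called higher. Muc1 was at 236, 231 and 243 CPM in WT and 323, 333 and 334 CPM in KO. Its log2 fold change was 0.48 (SE 0.05, edgeR adjusted p 0.0446). The call was lost without WT1, WT2, WT3 or KO1 in turn (log2 fold change 0.47, 0.46, 0.49 and 0.49, edgeR adjusted p 0.170, 0.189, 0.123 and 0.0829) and with the length and GC offset (log2 fold change 0.35, adjusted p 0.107). When WT3 and KO1 were both left out it was 0.51 (edgeR adjusted p 0.0108), and 3 of 5 tested mucin genes, Muc1, Muc4 and Muc13, were called higher, where 6.01% of all tested genes were. The genotypes did not overlap, and KO1 was close to KO2 and KO3, unlike for Muc16. Fibroblast genes of the layer beneath the mesothelium and around vessels gave 0 calls among 10, with a median of 0.05 and 1 at an unadjusted p of at most 0.05, against 2.28% and 27.3% of all tested genes. This was Pi16, at 68.6, 74.6 and 75.5 CPM in WT and 49.4, 32.6 and 31.9 CPM in KO (log2 fold change -0.83, SE 0.18, edgeR adjusted p 0.0707). Pi16 was at -1.15 (edgeR adjusted p 0.000422) without WT3 and KO1, where Pi16, Cd248 and Sfrp4 were called lower and Has1 higher, against 5.88% and 6.01% of all tested genes. Among the 10, 1 reached 1.4 times between KO1 and the other KO libraries, Has1, which the restricted mesothelial list also holds.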

How the data were processed

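Lung RNA of 3 WT and 3 KO mice at ZT7 was analysed. Reads were trimmed (Trimmomatic 0.36), aligned to GRCm38 (mm10) with STAR 2.5.3a and counted per gene with HTSeq 0.6.0, and the authors deposited the raw counts with no normalization. Versions are those of the submitters' processing notes, which also name Picard 2.9.0. The annotation release and the use of strand are not given in the sources used here. From these counts, edgeR 4.0.16 in R 4.3.3 was used (filterByExpr, TMM, glmQLFit, glmQLFTest), with Benjamini-Hochberg adjustment over all tested genes and a call at an adjusted p of at most 0.05. DESeq2 1.42.0 was an alternative. All tests are two-sided. CPM values use TMM factors of the 6 libraries. Counts of KO2 and KO3 were summed in fits and their CPM averaged for mean ± SD. SE and 95% intervals come from the estimate, its F statistic and its degrees of freedom. The likeness over libraries was computed on log2 (CPM + 0.01). Positions and exon lengths are from GENCODE M21, which holds 40340 (97.5%) of the gene identifiers. P-values measure only the spread between these samples.

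The 7 genes and the gene lists were chosen with earlier results of these data known. Named genes are the 7 genes, the restricted mesothelial and urothelial genes, Zpbp2, at most 3 per further list (the most abundant, and the largest called rise and fall or the 2 largest changes) and the 5 genes with the most similar profile. Pi16 was named after its values were seen, as a single gene behind a count, as were Alb, the genes named only as called without WT3 and KO1, and C3 and Has1 where they stand for a count.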

Additional observations from a re-analysis of the deposited data

How the results depend on the processing

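All 7 mesothelial genes stayed without a call under every alternative except leaving out WT3 and KO1, where 2 were called, Msln at 0.75 (edgeR adjusted p 0.00201) and Upk3b at 0.52 (0.00876), in a fit with 1 KO sample whose spread comes from WT1 and WT2. Over all genes the call count of 426 became 3875 with DESeq2, 937 when each library had to hold 10 counts, 3402 with 6 separate libraries, 2256 without WT3 and KO1, 2107 with a squamous epithelium term and 0 with the length and GC offset. Leaving out 1 library gave 0 to 418 calls, with 0 without WT1, WT2 or WT3 in turn and 17 without KO1. With library size alone 306 genes were called, of which 38.2% were higher in KO, against 60.3% of 426 with TMM. DESeq2 called 21.5% of the 18003 genes with an adjusted p, and the fit with separate libraries 18.9% of 18014. Tested were 16919 genes with at least 10 counts, 18660 with the squamous epithelium term and 18971 without WT3 and KO1. Of the further mesothelial lists of 14 and 18 genes, 12 and 18 were tested in the main fit. Without WT3 and KO1 13 and 18 were tested. The 0 calls among the further mesothelial genes became 7 with DESeq2, 2 with at least 10 counts, 6 with separate libraries, 14 without WT3 and KO1 and 7 with the squamous epithelium term. Leaving out 1 library gave 0 calls for these genes and for the 7 genes.

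The median log2 fold change of the 7 genes was 0.01, 0.35 without WT3 and KO1, and -0.041 to 0.36 when 1 library was left out, the highest without KO1. The log2 difference of their summed level was 0.17, 0.50 without WT3 and KO1, and 0.15 to 0.51 when 1 library was left out, again highest without KO1. Signs changed only for genes without a call. Lrrn4 (-0.00) was at 0.12 with separate libraries, 0.35 without WT3 and KO1 and 0.038 with the squamous epithelium term, Bnc1 (0.01) at -0.040 with library size alone, and Upk1b (0.10) at -0.0052 with the length and GC offset. Leaving out 1 library gave 0.39 to 0.79 for Msln and 0.20 to 0.52 for Upk3b, both highest without KO1 (adjusted p 0.0783 and 0.0784), and -0.093 to 0.36 for Lrrn4, -0.041 to 0.38 for Bnc1, -0.39 to 0.0036 for Wt1 and -0.29 to 0.03 for Muc16. The cause of these changes was not tested.

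Replicate numbers were not taken as pairs. Deviations from the group means over 13972 genes had an r of -0.52 for WT1 and KO1, 0.76 for WT2 and KO2 and -0.78 for WT3 and KO3. KO2 and KO3 are nearly alike, so their values with a WT library were alike and opposite in sign to that of KO1. WT3 had 0.8 with KO1 and -0.77 with KO2. These values therefore cannot decide whether the numbers pair the samples. With the replicate block on 6 separate libraries 1157 of 18014 tested genes were called. Among them were 5 from the further mesothelial lists of 14 and 18 genes and 0 of the 7, and Lrrn4 was at 0.077.

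With 3 and 2 samples the intervals of Lrrn4 and Bnc1 span -0.71 to 0.70 and -0.70 to 0.73, so smaller differences were not detectable. Wt1, Bnc1 and Muc16, with 324 to 748 counts per library, carry more counting error than the other genes.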

Other observations

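Genes beside the mesothelial genes on the chromosome were at low counts. Mslnl, which lies 282 bases from Msln and resembles it in sequence, had 16, 12 and 14 counts in WT1 to WT3 and 23, 18 and 15 counts in KO1 to KO3, against 5608 or more counts of Msln. Upk3bl, 8004 bases from Upk3b, had 9, 3 and 36 counts in WT and 49, 4 and 4 counts in KO, and was highest in WT3 and KO1, the libraries with squamous epithelium transcripts. Wt1os, the antisense gene 18 bases from Wt1, had 33, 46 and 26 counts in WT and 10, 22 and 35 counts in KO, lowest in KO1 as Wt1 was. How reads of Wt1 and Wt1os were separated by strand is not given in the sources used here.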
